A study of Mus musculus with 12 samples.

Results

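Livers of mice that lack Keap1 in hepatocytes were compared with those of their genetic controls when no drug had been given. The arrays were chosen by their titles and are 6 of the 12 in the series: 3 livers of conditional Keap1 knockout mice that received vehicle (CKO, replicates 3, 4 and 5) and 3 livers of control mice that received vehicle (WT, replicates 1, 2 and 3). CKO mice carried Albumin-Cre with 1 floxed and 1 null Keap1 allele. WT mice carried Albumin-Cre with 1 floxed and 1 wild-type allele, so both groups had the Cre transgene and a floxed allele. All were C57Bl/6J males of 9 weeks, received a mixture of DMSO, Cremophor-EL and PBS, and were killed 6 h later. The other 6 mice had the same genotypes and received CDDO-Im, a synthetic triterpenoid that activates Nrf2, at 30 umol/kg by gavage in the same vehicle, also 6 h before. Albumin-Cre acts in hepatocytes and can also delete the floxed allele of the controls, while the null allele of CKO mice lies in every cell. The comparison asks which liver genes differ when Nrf2 is released by a gene deletion and not by a drug.

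Keap1 holds the transcription factor Nrf2 (gene symbol Nfe2l2) in the cytoplasm and hands it to the Cul3 ubiquitin ligase for destruction. Oxidants and electrophiles modify cysteines of Keap1, and Nrf2 then enters the nucleus, pairs with a small Maf protein and binds antioxidant response elements near genes of detoxification, glutathione supply, NADPH supply and export. In liver the pathway is also known for links to lipid synthesis and inflammation.

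RNA of each liver was hybridised to 1 Affymetrix array, and the values are log2 signals, on which a difference of 1 is 2-fold. Genes were tested where at least 3 of the 12 arrays exceeded a log2 signal of 5, which left 8338 genes. Array medians lay between 2.33 and 2.34 and upper quartiles between 6.48 and 6.58, and the number of arrays limits the precision. The labels number the livers of a group and say no more of how the mice were housed or prepared, and p-values measure the spread between livers of a group, pooled over all 12 arrays. The median SD of a gene was 0.148 in WT and 0.132 in CKO livers. All 17 hepatocyte markers exceeded 5 in all 6 livers, and their summed log2 signals ranged from 258.5 to 259.4 in WT and from 258.8 to 260 in CKO livers. One Keap1 probe set gave 8.17, 7.92 and 7.94 in WT and 2.87, 2.74 and 2.76 in CKO livers. The other, which stands for the gene in the tests, gave 7.15, 7.48 and 6.58 in WT and 6.51, 6.51 and 6.15 in CKO livers and was not called (limma adjusted p = 0.0712). The sources used here do not give where either lies relative to the deleted part.

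By limma's moderated test, 543 of the 8338 genes (6.51%) passed an adjusted p of 0.05 and are called here, 271 higher (3.25%) and 272 lower (3.26%) in CKO livers. With the 6 vehicle arrays fitted alone the counts were 136 and 87, and without the filter on low values 137 and 95. In all 543 the WT and CKO values did not overlap, a property of 26.3% of the genes tested. Most changes were small: 169 of the genes that rose changed less than 2-fold, 64 from 2- to 4-fold, 19 from 4- to 8-fold and 19 at least 8-fold. Among the genes that fell the counts were 180, 77, 11 and 4, and the called genes that changed at least 2-fold made up 2.33% of all genes. Another tested probe set of the same gene was present for 109 rising and 121 falling genes, and all of them pointed the same way for 105 and 111. Without CKO vehicle replicate 3 the counts were 149 higher and 126 lower, without WT vehicle replicate 1 they were 171 and 131, and WT vehicle replicate 2 left out gave 169 lower, and CKO vehicle replicate 5 left out gave 180. Left out in turn, no array ended the call of 124 rising and 95 falling genes. All 543 kept their direction, which was fixed in advance because their WT and CKO values did not overlap.

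**Figure D1:**
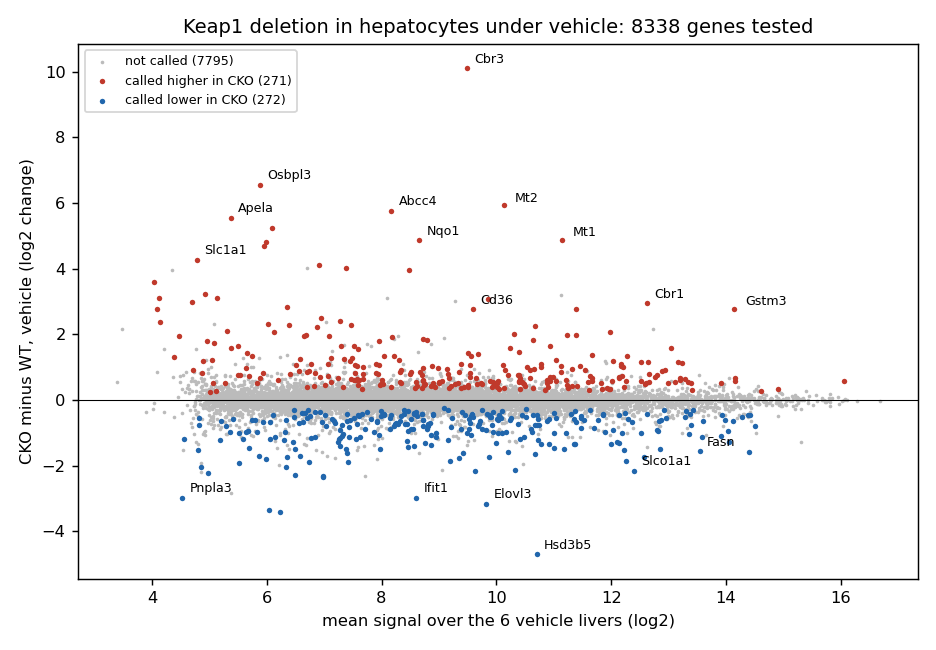
Log2 change between CKO and WT vehicle livers (vertical axis) against the mean log2 signal of the 6 livers (horizontal axis) for the 8338 genes tested, with 271 genes called higher in red, 272 called lower in blue and the rest in grey. The highest point is Cbr3 at 10.11 and the lowest is Hsd3b5 at -4.71.

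Short stretches of promoter sequence are shown for genes whose values follow, because they hold the letters of elements known for the pathways described. They come from RefSeq (build GRCm38.p6), 250 bases before the annotated start, which were available for 6852 of the tested genes. Searched on both strands were TGACNNNGC for the antioxidant response element, TGCGCNC or TGCACNC for the metal response element and GAAA, any 2 bases and GAAA again for the interferon-stimulated response element. Capitals mark a single match in each stretch, written as it stands on the gene's strand, and the coordinates cover the printed stretch. The stretch of Ifit1 holds another interferon match in its lower-case letters.
Abcc4, chr14:118676932-118676974, minus strand: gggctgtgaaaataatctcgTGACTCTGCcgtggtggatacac
Ugdh, chr5:65435946-65435994, minus strand: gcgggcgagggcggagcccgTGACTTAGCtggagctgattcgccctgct
Abcc2, chr19:43782190-43782238, plus strand: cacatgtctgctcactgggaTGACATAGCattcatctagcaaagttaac
Txnrd1, chr10:82859094-82859142, plus strand: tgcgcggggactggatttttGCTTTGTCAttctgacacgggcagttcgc
Mt2, chr8:94172519-94172567, plus strand: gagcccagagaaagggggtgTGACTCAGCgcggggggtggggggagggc
Mt1, chr8:94179046-94179088, plus strand: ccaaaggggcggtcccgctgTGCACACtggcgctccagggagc
Ifit1, chr19:34640765-34640814, plus strand: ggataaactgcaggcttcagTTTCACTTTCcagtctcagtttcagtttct
Stat2, chr10:128270256-128270305, plus strand: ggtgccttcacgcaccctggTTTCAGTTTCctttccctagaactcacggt
Trim30a, chr7:104465200-104465249, minus strand: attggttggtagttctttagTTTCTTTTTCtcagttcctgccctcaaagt
The first 5 are antioxidant response element matches, that of Mt1 is a metal response element match and the last 3 are interferon-stimulated response element matches. The antioxidant letters occurred in 12% of promoter windows of tested genes, 15.8% of those of genes called higher, 10% of those of genes called lower and 21.7% of those of the called defence genes. These letters also occurred in 13.2% of windows of genes called higher at least 2-fold. For interferon response genes called lower the share was 18.8%, so the shares did not follow the direction or size of change throughout. The metal response letters occurred in 29.9% of windows of tested genes, and the interferon letters in 2.51%. A match is a description of the sequence and not a binding site.

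Quinone and carbonyl reductases, which detoxify reactive quinones and carbonyls, held the largest change of all genes. Of 11 tested, 4 rose and 1 fell (45.5% called), with a median change of 0.29, against 6.51% and -0.01 over all genes tested. None fell with the 6 vehicle arrays alone or without the filter on low values. Cbr3, a carbonyl reductase, gave 3.14, 7.16 and 3.01 in WT and 14.56, 14.99 and 14.08 in CKO livers. WT replicate 2 stood well above the other 2 WT livers, and the CKO livers were all far above it (change 10.11 ± 0.88, log2 ± SE, limma adjusted p = 2.12e-04). Nqo1, a quinone reductase widely used as a readout of Nrf2, gave 5.18, 6.53 and 6.96 in WT and 11.04, 11.16 and 11.05 in CKO livers, with close CKO values and scattered WT values. It rose 29.1-fold (adjusted p = 4.55e-05). Cbr1, a relative of Cbr3, rose from 10.89, 11.53 and 11.05 in WT to 14.08, 14.20 and 14.02 in CKO livers, 7.69-fold. Ugdh, which makes UDP-glucuronate for conjugation, gave 12.50, 12.48 and 13.05 in WT and 13.85, 13.73 and 13.79 in CKO livers and rose 2.16-fold. Among 11 aldo-keto reductases, Akr1c19 alone was called (9.09%), with a change of 1.15 ± 0.19, and Akr1b8 differed by 1.14 ± 0.41 without a call (adjusted p = 0.13).

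Glutathione supply and use rose in part. Of 17 genes of synthesis and recycling 4 rose and none fell (23.5% called against 6.51% of all genes tested), with 14 of 17 changes positive. Gclc, the subunit that catalyses the first step of making glutathione, gave 12.46, 12.56 and 12.76 in WT and 13.75, 13.89 and 13.57 in CKO livers and rose 2.21-fold (change 1.14 ± 0.11, adjusted p = 3.11e-04). Gss, which completes the tripeptide, changed by 0.76 ± 0.13, and Gsr, which reduces oxidised glutathione, by 0.85 ± 0.13. Gclm, the modifier subunit, gave 12.42, 12.47 and 12.66 in WT and 12.71, 12.68 and 12.61 in CKO livers and was not called (adjusted p = 0.473). Of 19 glutathione S-transferases, 7 rose and none fell (36.8% called). They were 4 of 7 of the mu class (Gstm1 to Gstm4), 2 of 3 of the alpha class (Gsta2, Gsta4) and Gstt3. Gsta2 gave 10.20, 9.77 and 10.05 in WT and 12.39, 13.14 and 12.83 in CKO livers, a 6.85-fold rise with no overlap. Gstm3 gave 12.83, 11.84 and 13.62 in WT and 15.53, 15.68 and 15.38 in CKO livers and rose 6.82-fold, with a WT range wider than that of the CKO livers. Gstm1, already near the top of the scale in WT livers, rose 1.49-fold. Members of a class are close relatives, and signal shared between their probes was not tested. The call for Gsta4 (1.19 ± 0.27) was lost without WT vehicle replicate 1 or 2 or CKO vehicle replicate 4 or 5 (adjusted p from 0.0556 to 0.103).

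Peroxide and thioredoxin enzymes gave 4 rises and no fall among 17 (23.5% called against 6.51% of all genes tested). Srxn1, which repairs overoxidised peroxiredoxins, gave 9.05, 9.84 and 9.76 in WT and 11.91, 11.84 and 11.68 in CKO livers and rose 4.77-fold (adjusted p = 0.001). Txnrd1, the cytosolic thioredoxin reductase, rose 2.25-fold from 11.71, 12.16 and 11.93 to 13.16, 13.18 and 12.97. Gpx2, a glutathione peroxidase best known from the gut, gave 4.31, 6.17 and 4.08 in WT and 8.95, 9.24 and 8.72 in CKO livers. WT replicate 2 was again the highest control liver. Gpx4, which reduces lipid hydroperoxides, gave 12.96, 13.16 and 13.09 in WT and 13.56, 13.62 and 13.68 in CKO livers and rose 1.46-fold. Thioredoxin itself, Txn1, changed by 0.30 ± 0.09 without a call (adjusted p = 0.0775).

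Of 14 efflux transporters, 4 rose and none fell (28.6% called against 6.51% of all genes tested). The 4 were all of the Abcc family, which pumps conjugates out of cells. Abcc4 gave 5.12, 5.72 and 5.03 in WT and 10.99, 11.09 and 11.07 in CKO livers, a 54.3-fold rise (adjusted p = 3.92e-06), and the CKO livers differed by less than the WT livers did. Abcc5 rose 15.6-fold. Abcc2 and Abcc3, the canalicular and sinusoidal pumps of bilirubin and drug conjugates, changed by 0.69 ± 0.12 and 0.75 ± 0.13. Abcc1 differed by 0.84 ± 0.27 without a call (adjusted p = 0.0923). With the 6 vehicle arrays fitted alone, 2 of the 4 were called. Of 12 uptake transporters, Slc22a12, a urate transporter of the kidney tubule, was below a log2 signal of 4 in WT livers and gave 9.02, 8.38 and 8.78 in CKO livers (change 5.25 ± 0.51, adjusted p = 4.09e-04). Slco1a1, an organic anion carrier, fell from 13.59, 13.63 and 13.19 to 11.75, 10.59 and 11.59.

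Metallothioneins, small proteins that bind zinc and copper, had the largest median change of the groups described, 5.41. Mt1 gave 9.62, 7.75 and 8.75 in WT and 13.93, 13.12 and 13.72 in CKO livers and rose 29.6-fold. Mt2 gave 7.63, 5.99 and 7.88 in WT and 13.62, 12.76 and 12.93 in CKO livers and rose 61.3-fold (adjusted p = 3.16e-04). WT replicate 2 was the lowest control liver for both, and no control reached the lowest CKO liver. The 2 genes are close relatives, and signal shared between their probes was not tested. Of 24 genes of heme and iron, 3 rose and none fell (12.5% called against 6.51% of all genes tested). Blvrb, a biliverdin and flavin reductase, rose 3.03-fold from a mean of 12.25 ± 0.23 (SD, n = 3) to 13.85 ± 0.07. Slc40a1, the iron exporter ferroportin, gave 12.87, 12.97 and 13.04 in WT and 13.63, 13.53 and 13.66 in CKO livers and rose 1.57-fold. Hmox1, which opens the heme ring and is a known Nrf2 target, gave 6.57, 6.91 and 6.31 in WT and 7.91, 7.39 and 7.65 in CKO livers and was not called (adjusted p = 0.0557). Hfe rose by 0.37 ± 0.08, a call lost without WT vehicle replicate 1, 2 or 3 or CKO vehicle replicate 3 (adjusted p from 0.0521 to 0.0785).

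Glucuronidation genes gave small rises. Of 13 glucuronidation genes, 4 rose (Ugt2b35, Ugp2, Slc35d1 and Ugdh) and none fell, while of 8 sulfation genes Sult2a8, a bile acid sulfotransferase, fell by 1.11 ± 0.16. The shares called were 30.8% and 12.5%, against 6.51% of all genes tested. Ugt2b35 gave 13.63, 13.92 and 14.07 in WT and 14.42, 14.40 and 14.51 in CKO livers and rose 1.49-fold. Pgd, which makes NADPH in the pentose phosphate pathway, rose from 10.41, 10.23 and 10.06 to 11.50, 11.49 and 10.98 (2.13-fold). It was the only one of 13 NADPH genes called (7.69%), and the median change of these was 0.04. With the vehicle arrays alone 1 of the 4 glucuronidation genes was called. Cyp2b10, a cytochrome P450 induced through the receptor CAR, gave 7.23, 3.61 and 6.72 in WT and 8.42, 8.55 and 7.71 in CKO livers without a call (adjusted p = 0.124). Among nuclear receptors Pparg, a regulator of lipid storage, rose 2.41-fold. Of 13 regulators of the pathway 1 rose and 2 fell (23.1% called against 6.51% of all genes tested), by less than 2-fold each, and none was called with the vehicle arrays alone. Mafg, a small Maf partner of Nrf2, rose by 0.51 ± 0.09. Nfe2l2 itself fell by 0.76 ± 0.14 (adjusted p = 0.0102), and Btrc, a ubiquitin ligase subunit that also marks Nrf2 for destruction, fell by 0.70 ± 0.11.

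**Figure D2:**
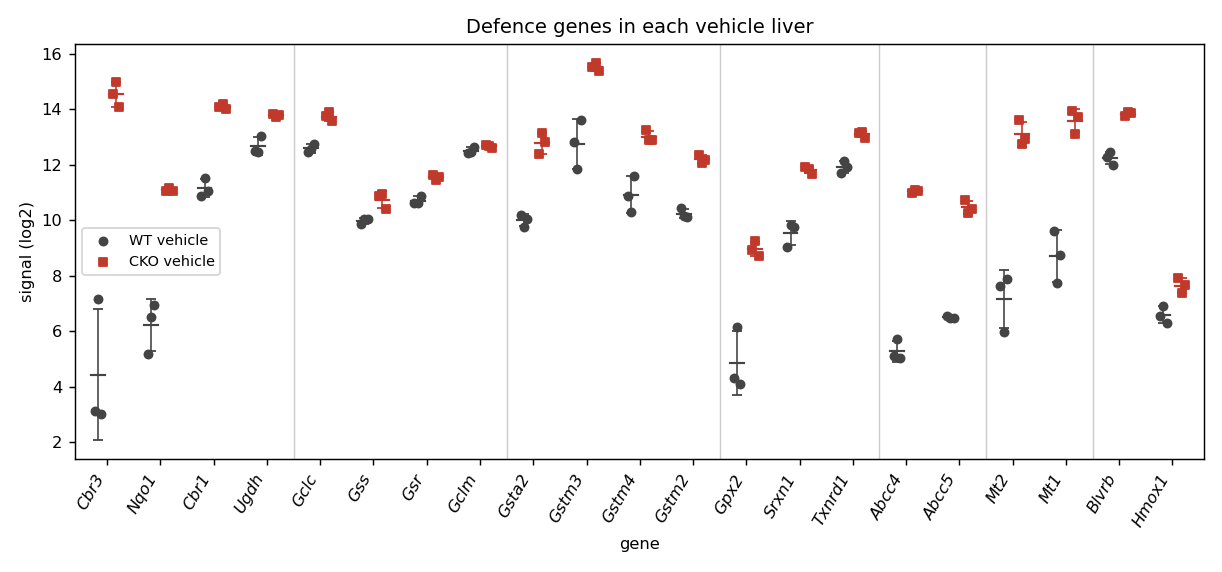
Log2 signal (vertical axis) of 21 genes of detoxification, glutathione, peroxide, efflux, metal and heme metabolism (horizontal axis) in each of the 3 WT and 3 CKO vehicle livers, 1 point a liver, with the group mean and SD as bars. Cbr3 shows the widest gap, and the WT and CKO livers do not overlap for any of the called genes.

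Genes of fatty acid synthesis were lower. Of 16 fatty acid synthesis genes 6 fell and none rose (37.5% called against 6.51% of all genes tested). Of the 16 changes 15 were negative, and the median change was -0.93. Acly, which supplies acetyl-CoA from citrate, gave 13.67, 13.48 and 13.17 in WT and 11.57, 12.38 and 11.15 in CKO livers and fell 3.34-fold (change -1.74 ± 0.30, adjusted p = 0.0089). CKO replicate 4 lay nearest to the controls. Elovl3, an elongase of very long chain fatty acids, gave 12.27, 10.75 and 11.22 in WT and 9.37, 7.29 and 8.08 in CKO livers. Elovl2, an elongase of polyunsaturated fatty acids, fell 1.97-fold. Fasn, fatty acid synthase, fell by 1.56 ± 0.34, a call lost without WT vehicle replicate 1, 2 or 3 (adjusted p from 0.0532 to 0.0777). Elovl6 and Scd1, an elongase and a desaturase of the same pathway, differed by -1.43 ± 0.41 and -0.53 ± 0.21 without calls (adjusted p = 0.0687 and 0.158). The count of 6 was 3 without WT vehicle replicate 1 and 3 without WT vehicle replicate 2, 1 without the filter on low values and 0 with the 6 vehicle arrays fitted alone, while the median stayed at -0.93 in the last 2.

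Genes of triglyceride assembly and lipid droplets were divided. Of 21 tested, 1 rose and 3 fell (19% called against 6.51% of all genes tested). Of the 21 changes 11 were positive and 10 negative, and the median change was 0.00. Pnpla3, a lipase-like protein of lipid droplets, gave 6.20, 6.11 and 5.74 in WT and 2.55, 4.01 and 2.55 in CKO livers (change -2.98 ± 0.32, adjusted p = 8.23e-04). Plin2, which coats lipid droplets, fell 1.94-fold. Pnpla2, the main triglyceride lipase, rose by 0.68 ± 0.16, a call lost without WT vehicle replicate 1 or 3 or CKO vehicle replicate 3 or 5 (adjusted p from 0.0705 to 0.0902). Of 28 cholesterol genes 2 fell and none rose (7.14% called). Of these genes 1 fell without WT vehicle replicate 1, CKO vehicle replicate 3 or 4 or CKO CDDO-Im replicate 3, and none with the 6 vehicle arrays alone. All 16 synthesis genes were negative, with a median of -0.73 and none called, 8 had an unadjusted limma p under 0.05, and WT vehicle replicate 1 was above the mean of the other 2 controls for 15 of them. Stard4, a sterol carrier, fell 3.04-fold from 11.37, 11.19 and 10.45 to 9.11, 9.29 and 9.79. Cd36, a fatty acid uptake receptor, gave 7.48, 9.45 and 7.69 in WT and 10.96, 11.16 and 10.78 in CKO livers and rose 6.76-fold, with WT replicate 2 above the other controls. Of 50 genes of fatty acid oxidation and PPAR alpha targets, 1 rose and 4 fell (10% called). The 4 became 1 without WT vehicle replicate 1, WT vehicle replicate 2 or CKO vehicle replicate 3, 2 without CKO vehicle replicate 5 and 8 without CKO vehicle replicate 4. None of the 4 was called without the filter or with the vehicle arrays alone.

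Carbohydrate genes moved in both directions. Pklr, the liver pyruvate kinase, gave 11.84, 12.05 and 11.91 in WT and 10.45, 10.76 and 10.12 in CKO livers and fell 2.81-fold (adjusted p = 0.00374). Pfkl, the liver phosphofructokinase, fell by 0.71 ± 0.14. Gbe1, the glycogen branching enzyme, gave 10.13, 10.12 and 10.28 in WT and 11.01, 11.24 and 11.15 in CKO livers and rose 1.94-fold. Of 31 genes of the list 5 rose and 2 fell (22.6% called against 6.51% of all genes tested). The count of 5 was 1 without WT vehicle replicate 3, 2 without WT vehicle replicate 2, CKO vehicle replicate 3 or CKO vehicle replicate 4, and 3 without WT vehicle replicate 1 or WT CDDO-Im replicate 3. It was 1 without the filter and 2 with the vehicle arrays alone. In bile acid synthesis Cyp39a1, an oxysterol hydroxylase, rose 3.6-fold, and Amacr, a racemase of side-chain oxidation, fell by 0.60 ± 0.09. Rhbg, an ammonium transporter of pericentral hepatocytes, rose 2.53-fold. Of 48 genes of oxidative phosphorylation limma called none, 1 had an unadjusted p under 0.05 (1853 of all genes tested had), and the median change was -0.01.

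Genes known to be higher in male than in female mouse liver were lower. Of 23 tested, 7 fell and none rose (30.4% called against 6.51% of all genes tested), with a median change of -0.82. The count of 7 was 4 without WT vehicle replicate 1 and 2 either without the filter on low values or with the 6 vehicle arrays alone. Hsd3b5, a steroid dehydrogenase of male liver, gave 13.22, 13.47 and 12.47 in WT and 8.86, 6.27 and 9.90 in CKO livers and fell 26.2-fold (adjusted p = 0.0121). CKO replicate 4 was the lowest liver, as it was over the whole list, whose median deviation from the WT mean was -0.37, -1.33 and -0.82 in CKO replicates 3, 4 and 5. Nudt7, a coenzyme A hydrolase of peroxisomes, fell 2.46-fold. Of 26 female-biased genes on the array 16 were left out for low signal. Among the 10 tested 2 rose (20% called), Cd36 and Trim24, the latter by 1.22 ± 0.23. The median deviation of these 10 was 0.39, 1.33 and 0.66 in the same livers. A gene can pass the filter through the livers where it is high, so this median is a description only. The count of 2 was 1 with the 6 vehicle arrays fitted alone or without the filter on low values. Ghr, the receptor of growth hormone, whose pattern of release sets many of these sex differences, gave 13.83, 13.82 and 13.68 in WT and 12.96, 13.10 and 12.98 in CKO livers and fell 1.7-fold (adjusted p = 0.00264). Apela, a ligand of the apelin receptor, gave 2.51, 2.66 and 2.62 in WT and 8.79, 7.52 and 8.16 in CKO livers, and Igfbp2 fell by 1.85 ± 0.44, a call lost without WT vehicle replicate 1, 2 or 3, CKO vehicle replicate 3 or 5 or WT CDDO-Im replicate 3 (adjusted p from 0.0513 to 0.12).

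Genes of the interferon response were lower as a group. Of 53 tested, 21 fell and none rose (39.6% called against 6.51% of all genes tested). Of the 53 changes 50 were negative, and the median change was -0.78. Their median deviation from the mean of the WT livers was 0.05, 0.11 and -0.14 in WT and -1.03, -0.68 and -0.76 in CKO livers, so that every CKO liver lay below every WT liver. Irf7, a master factor of interferon production, gave 9.19, 9.07 and 8.95 in WT and 7.82, 7.81 and 7.79 in CKO livers and fell 2.4-fold (adjusted p = 0.00256). Irf9, a DNA-binding factor of the interferon response, fell 2.64-fold from 7.83, 8.12 and 7.99 to 6.55, 6.49 and 6.70. Rtp4, a strongly induced interferon gene, gave 10.53, 11.16 and 10.47 in WT and 8.24, 8.61 and 8.77 in CKO livers and fell 4.52-fold. Usp18, which shuts the receptor off, fell 3.4-fold, and Eif2ak2, the kinase PKR, 2-fold. Stat2, which carries the signal from the receptor, fell by 0.97 ± 0.23, a call lost without WT vehicle replicate 1, 2 or 3 or CKO vehicle replicate 3, 4 or 5 (adjusted p from 0.0521 to 0.111). Trim30a fell by 1.30 ± 0.26, a call lost without WT vehicle replicate 1 or 2 or CKO vehicle replicate 3 (adjusted p from 0.053 to 0.0686). Ifit1 fell by 2.98 ± 0.77 (adjusted p = 0.0467), a call lost without 9 of the 12 arrays in turn, of which CKO vehicle replicate 3 gave the highest adjusted p, 0.154. The count of 21 was 10 without WT vehicle replicate 1 or CKO vehicle replicate 3, 12 without WT vehicle replicate 2 or CKO vehicle replicate 5, 11 with the vehicle arrays alone and 5 without the filter on low values. The interferon letters were present in 31.1% of promoter windows of the tested members and in 18.8% of those called.

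Dendritic cell markers, which include class II antigen presentation genes, overlapped between the groups. All 5 tested had negative changes with a median of -0.94, limma called none and 1 had an unadjusted p under 0.05, their median deviation from the WT mean was -0.93 in WT replicate 3 against -0.81, -0.57 and -1.32 in CKO livers, and the summed signals of the 10 on the array ran from 53.25 to 60.43 in WT and from 50.91 to 55.06 in CKO livers. Itgax, Xcr1, Flt3, Siglech and Ccr7 were below 5 in all 6 livers. H2-Aa, a class II chain, gave 10.99, 10.58 and 8.94 in WT and 8.85, 9.37 and 8.18 in CKO livers (adjusted p = 0.23). WT replicate 3 lay within the range of the CKO livers, so the groups overlapped. The part of these cells in the interferon result was not tested, and in whole liver fewer cells of a type and less RNA per cell cannot be told apart.

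**Figure D3:**
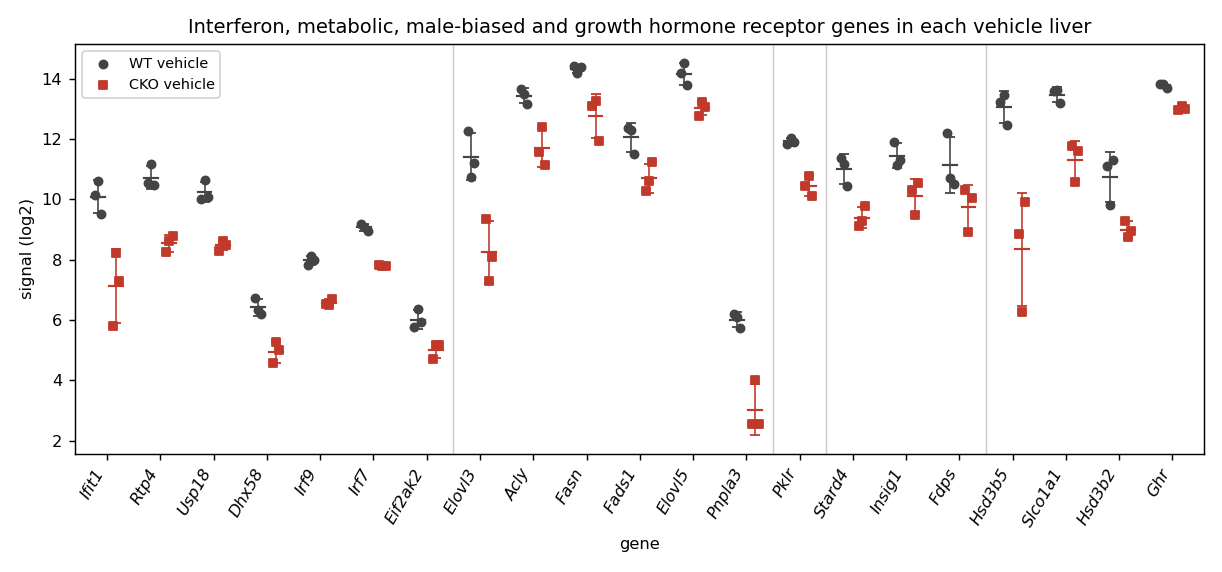
Log2 signal (vertical axis) of 21 interferon, lipid, glycolysis, male-biased and growth hormone receptor genes (horizontal axis) in each of the 3 WT and 3 CKO vehicle livers, 1 point a liver, with the group mean and SD as bars. The difference of means is widest for Hsd3b5 at -4.71, and Fdps, a cholesterol synthesis gene, was not called.

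Among stress and inflammation lists other than the interferon list, the early response and lysosomal lists had the largest shares called. Shares were 16.7% of 12 cell cycle genes, 16% of 25 growth factor and IGF axis genes and 14.3% of 14 p53 targets and growth arrest genes. The remaining lists gave few calls. Of 31 acute phase genes 2 rose (6.45% called against 6.51% of all genes tested): Mt2 and Orm3, an orosomucoid, by 2.49 ± 0.42. The summed log2 signals of the 31 were 380.5, 368.5 and 376.8 in WT and 413, 383.6 and 388.7 in CKO livers. CKO replicate 3 was above the mean of the other 2 CKO livers for 23 of the 31. Of 40 proteasome genes 2 rose (5% called), and 1 rose without WT vehicle replicate 1 or any 1 of the 3 CKO vehicle livers. Psmd5, a chaperone of the regulatory particle, rose by 0.77 ± 0.13. Of 35 genes of the unfolded protein and amino acid response 1 rose (2.86% called), and the count was 0 without CKO vehicle replicate 5 and 4 without CKO vehicle replicate 4. Asns, asparagine synthetase, gave 5.85, 6.83 and 6.95 in WT and 11.56, 6.83 and 10.51 in CKO livers and was not called (adjusted p = 0.147). CKO replicates 3 and 5 were high and replicate 4 was not, and Trib3, a pseudokinase of the same response, showed the same 2 livers high with 4.25, 3.59 and 3.90 in WT and 7.30, 3.84 and 7.57 in CKO livers. Of 17 early response genes 4 were called (23.5% against 6.51% of all genes tested), and 1 with the 6 vehicle arrays alone. Jund fell by 0.81 ± 0.10 and Jun, its relative in the AP-1 factor, fell by 1.49 ± 0.30, the latter call lost without WT vehicle replicate 2 or 3 or CKO vehicle replicate 3 or 5 (adjusted p from 0.0522 to 0.0631). Gadd45b rose by 0.51 ± 0.09 and Myc by 1.24 ± 0.25, the latter call lost without WT vehicle replicate 1 or 2 or CKO vehicle replicate 3 or 4 (adjusted p from 0.0525 to 0.07). Of 21 autophagy and lysosome genes 3 rose and 1 fell (19%), and 1 rose without CKO vehicle replicate 3 or 5 or any 1 of the 3 WT vehicle livers. Hexa, a lysosomal hexosaminidase, rose 1.71-fold. Sqstm1, an adaptor that binds Keap1, gave a difference of 0.30 ± 0.10 without a call (adjusted p = 0.104).

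Several large changes concerned genes with little or no signal in control liver. In 25 genes all WT livers were below 5 and all CKO livers above it, and 19 of them were called. The opposite held for 13 genes, of which 7 were called. Both sets were chosen by this separation and can pass the filter through the higher group alone. Their calls are therefore a description only, beside 6.51% of all genes tested. Osbpl3, an oxysterol-binding protein, gave 2.31, 3.27 and 2.23 in WT and 8.63, 9.28 and 9.57 in CKO livers. Slc1a1, a glutamate and cysteine carrier, gave 2.63, 2.66 and 2.63 in WT and 7.13, 7.37 and 6.24 in CKO livers. These 2 genes were close to the bottom of the scale in every control and clearly above 5 in every CKO liver. Anxa13, an annexin of epithelial membranes, gave 3.27, 5.21 and 2.28 in WT and 8.32, 8.48 and 8.36 in CKO livers. It is not among the 25, because WT replicate 2 exceeded 5. Tinag, a basement membrane antigen of kidney tubules, gave 2.22, 2.22 and 2.30 in WT and 6.16, 6.58 and 4.73 in CKO livers. CKO replicate 5 was below 5, so Tinag is not among the 25 either. Heph, a copper-dependent ferroxidase, gave 2.57, 2.52 and 2.64 in WT and 5.92, 5.38 and 5.71 in CKO livers. Control means of all 5 were under 5, so no linear fold is given, and their changes were 6.56 ± 0.43, 4.27 ± 0.24, 4.80 ± 0.57, 3.58 ± 0.42 and 3.09 ± 0.32 in the order named. Among the largest falls Nxpe2 gave 7.99, 7.94 and 7.89 in WT and 3.67, 5.02 and 4.87 in CKO livers, and Carmil1, a regulator of actin capping, fell 5.14-fold. Tmem19, a membrane protein, fell 4.36-fold (adjusted p = 4.44e-04).

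Markers of other liver cells gave few calls. Of 13 Kupffer cell and macrophage markers tested 2 rose (15.4% called against 6.51% of all genes tested), and 11 changes were positive and 2 negative. The 2 were Slc40a1 and Marco, a scavenger receptor, which changed by 2.30 ± 0.46 and lost its call without CKO vehicle replicate 3 (adjusted p = 0.0658). The summed signals of the 19 such markers on the array ran from 132.3 to 146.5 in WT and from 139.9 to 148.3 in CKO livers. Of these Cd68, Fcgr1, Itgam and Cx3cr1 were below 5 throughout. Clec4f, a Kupffer cell lectin, gave a difference of 0.25 ± 0.23 without a call (adjusted p = 0.571). Of 17 endothelial markers (5.88% called) Lyve1 rose by 2.24 ± 0.46, a call lost without WT vehicle replicate 1 or 2 or CKO vehicle replicate 5 (adjusted p from 0.0559 to 0.0629). Of the 16 lymphocyte markers, 15 were below 5 in all 6 livers.

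**Figure D4:**
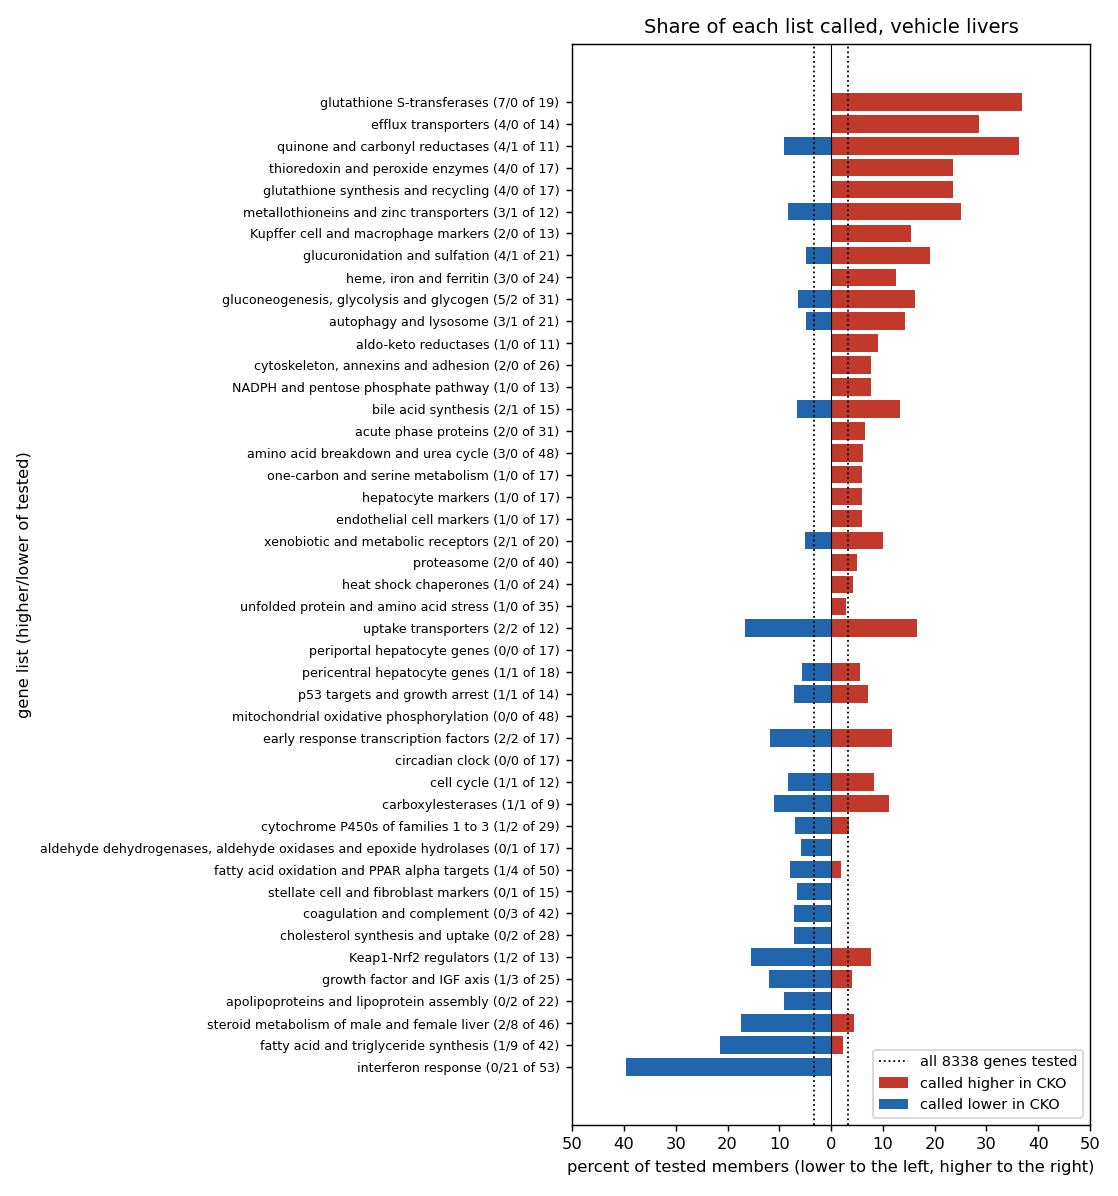
Percent (horizontal axis) of the members of each gene list with at least 9 tested (vertical axis) that were called higher (to the right) or lower (to the left) in CKO livers, with the dotted lines at 3.25% and 3.26% for all 8338 genes tested. Short lists give coarse shares, and each label carries the counts.

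The same genotypes after CDDO-Im gave 128 called genes (1.54%), 62 higher (0.744%) and 66 lower (0.792%) in CKO livers, from mice that share none of the arrays above. Of the 271 genes that rose under vehicle, 35 (12.9%) rose there too, which is 56.5% of the 62, and of the 272 that fell, 24 (8.82%) fell there too, 36.4% of the 66. Srxn1, Mafg and Dennd4c were called in opposite directions. The vehicle call of Dennd4c was lost without 10 of the 12 arrays in turn (highest limma adjusted p 0.15, without CKO vehicle replicate 3). A test of that difference of differences called 23 genes (0.276%), 21 of which had risen under vehicle. The count of 128 was 32 without WT CDDO-Im replicate 3, 34 without CKO CDDO-Im replicate 3, 41 without CKO CDDO-Im replicate 4, 48 without CKO CDDO-Im replicate 2, 63 without WT CDDO-Im replicate 2 and 76 without WT CDDO-Im replicate 4.

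Nqo1 had means of 6.22, 11.08, 9.67 and 10.85 in WT vehicle, CKO vehicle, WT CDDO-Im and CKO CDDO-Im livers. The genotype difference was 4.86 ± 0.35 under vehicle and 1.19 ± 0.35 after the drug (interaction -3.68 ± 0.49, limma adjusted p = 0.0187). Mt2 had means of 7.16, 13.10, 12.40 and 13.71 in the same order, with an interaction of -4.62 ± 0.78. The WT livers of both genes were higher after the drug than under vehicle. For 13 of the 21 genes the WT mean after CDDO-Im reached or passed the mean of undosed CKO livers. Srxn1 had means of 9.55, 11.81, 12.62 and 11.29. Abcc4 and Osbpl3 were called in both pairs: their differences after the drug were 3.96 ± 0.28 and 5.28 ± 0.43. Pnpla3 had means of 6.01, 3.04, 2.42 and 2.47 in the same order. It differed by -2.98 ± 0.32 under vehicle and by 0.05 ± 0.32 after the drug (limma interaction adjusted p = 0.0332). After the drug both genotypes were near the bottom of the scale, which limits how far Pnpla3 could differ there. The interaction count of 23 was between 2 and 14 without any 1 of WT vehicle replicate 1, the 3 CKO vehicle arrays or the 6 CDDO-Im arrays.

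**Figure D5:**
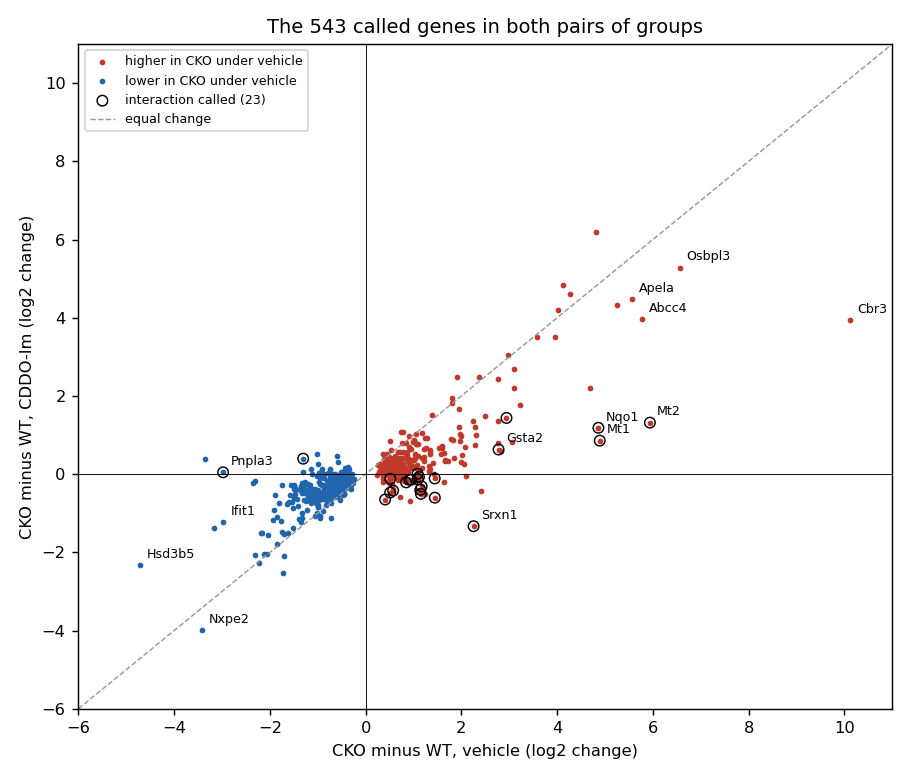
Log2 difference between CKO and WT livers under vehicle (horizontal axis) and after CDDO-Im (vertical axis) for the 543 genes called under vehicle, with circles around the 23 genes with a called interaction and a dashed line of equal change. The genes were chosen by the horizontal axis, so the spread along the vertical axis is a description only, and Osbpl3 lies at 6.56 and Apela at 5.56 on the horizontal axis.

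Genes beside Keap1 on its chromosome showed no called difference. Of the 20 nearest, 11 were tested and limma called none. An unadjusted limma p under 0.05 held for 2 of the 11, and for 1853 of all 8338 genes tested. Groups did not overlap for 3 of the 11, and for 26.3% of all genes tested. Kri1 differed by 0.47 ± 0.18 (limma adjusted p = 0.156), Qtrt1 differed by 0.39 ± 0.14 and Carm1 by -0.22 ± 0.12. Over the chromosomes the share of genes called ran from 4.18% to 8.41%, lowest on chromosome 12 and highest on X.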

How the data were processed

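Liver RNA of 12 mice was measured on 1 Affymetrix array each. The authors deposited log2 signals, and the submitters' processing notes name GCRMA 2.12.1 and R 2.7.0. No further scaling was applied. Of 45101 probe sets, 64 were controls, 34945 named 1 gene, 932 several and 9160 none, and 34741 of the 34945 matched a current gene by Entrez identifier. The 18193 genes were each represented by the probe set with the highest mean over all arrays. Genes above a log2 signal of 5 on at least 3 of 12 arrays (8338) were fitted with limma 3.58.1 in R 4.3.3 as 4 group means (8 residual and 2.32 prior degrees of freedom), with Benjamini-Hochberg adjustment over all of them and a threshold of 0.05. Linear folds were left out where a group mean was under 5. The fit was tested on simulated data. The sources used here give no array batches.

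Genes were named if they were among the 30 highest rises or 30 deepest falls that were called, leaving out predicted genes and clones, or were members of the gene lists, the 10 genes nearest Keap1 on each side, or Keap1, Nfe2l2, Nqo1, Gclc, Gclm, Hmox1, Txnrd1 and Srxn1. Members and lists were chosen with earlier results of these data known, so they are described by counts and medians without a test of their own. Dennd4c was named after its values were seen. RefSeq promoters matched 442 of the called genes. Alternatives covered scaling, filters, low values, the probe set of a gene, the arrays in the fit, the variance model and each array left out.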

Additional observations from a re-analysis of the deposited data

Results flagged for a closer look

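The genotype difference after CDDO-Im differed from that under vehicle for 23 genes by limma's interaction test (adjusted p under 0.05). Each value below is the CKO minus WT difference after the drug less that under vehicle, on the log2 scale. For genes that rose under vehicle a negative value is a smaller or opposite difference after the drug. For genes that fell, a positive value is. Among reductases and conjugating enzymes and Pir, an iron-binding protein of the nucleus, the values were -3.68 for Nqo1, -1.50 for Cbr1, -1.19 for Ugdh, -1.66 for Akr1c19 and -1.55 for Pir. For glutathione, thioredoxin and NADPH enzymes they were -1.54 for Gclc, -1.06 for Gsr, -2.15 for Gsta2, -3.59 for Srxn1, -1.48 for Txnrd1 and -1.22 for Pgd. For metallothioneins, glycogen branching and the small Maf factor they were -4.03 for Mt1, -4.62 for Mt2, -1.10 for Gbe1 and -0.98 for Mafg. Outside the gene lists, as Pir is, and chosen after their values were seen, they were -2.05 for Ppfibp2, -1.07 for Abhd4, -1.06 for Dennd4c, -0.99 for Ikbkg, -0.63 for Tent4b and -1.06 for Ubap1. The 2 genes that had fallen under vehicle gave 3.02 for Pnpla3 and 1.70 for Tsc22d1, the latter also outside the lists. Pnpla3 was near the bottom of the scale in both genotypes after the drug, which limits its value.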

How the results depend on the processing

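None of the single genes followed through the alternatives changed its direction under any of them. For called genes the fits without 1 array could not change it, because their groups did not overlap. Among all called genes, 1 that fell had another probe set called higher. Without a filter on low values the counts were 137 higher, 95 lower, 100 called and at least 2-fold, 29 for the CDDO-Im pair and 7 for the interaction. With the 6 vehicle arrays alone they were 136 higher, 87 lower and 105 at least 2-fold. Leaving out 1 array in turn gave 149 to 263 higher, 126 to 274 lower, 135 to 191 at least 2-fold, 32 to 139 for the CDDO-Im pair and 2 to 31 for the interaction. Fewer samples, or more genes tested, enter these fits. Centring each array on its median gave 349 higher and 257 lower against 271 and 272, and quantile normalization 318 and 281. Testing every probe set gave 333 and 334, and leaving out genes with repeated values, chosen after seeing the data, gave 280 and 286.

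No paired analysis was possible because the WT and CKO vehicle livers share only the replicate number 3. The CDDO-Im groups share numbers 2, 3 and 4. Deviations of same-numbered samples from their group means, taken over genes, correlated at 0.127, 0.078 and 0.146. Differently numbered samples were not compared, so these values cannot decide whether the numbers pair the livers. The 6 drug arrays alone gave 56 calls without the replicate block and 18 with the replicate block. Arrays carry no counts, and signal near the bottom of the scale limits the values of genes below a log2 signal of 5.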
